A study of Mus musculus with 18 samples.

Results

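The Wnt and beta-catenin pathway was followed through 46 genes of the 50686 genes counted in E0771 cells. E0771 is a mouse mammary tumor line described by its labels as triple negative. The term means cells without estrogen and progesterone receptors and with HER2 at a normal level. The members were chosen by name, with earlier results of these data known. They are Wnt ligands and their export factors, receptors, regulators of receptor turnover and secreted inhibitors. Added to these are the cytoplasmic machinery around beta-catenin, feedback inhibitors and the TCF/LEF factors. The retroviral hairpin in the cells targeted Renilla luciferase (cntrl) or, with 2 different sequences, Cdk8 (shCdk8-1 and shCdk8-2). Every line received either DMSO or 1 µM Senexin B (SnxB), which inhibits the kinases CDK8 and CDK19, for 48 h. There were 6 groups of 3 libraries, 18 in all. All lines, cntrl included, had been transduced, carried a luciferase reporter and were sorted for the mCherry of the hairpin vector, and each hairpin is represented by 1 transduced line, so that hairpin and line cannot be told apart. The labels do not say whether the 3 libraries of a group came from separate cultures, so p-values measure the spread between these libraries, which may be technical.

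In canonical Wnt signaling, a secreted Wnt protein binds a Frizzled receptor together with LRP5 or LRP6. This blocks the destruction complex of APC, AXIN, CK1 and GSK3, which otherwise phosphorylates beta-catenin and marks it for degradation. Stabilized beta-catenin enters the nucleus and joins TCF/LEF proteins at target genes, among them Axin2, which acts as a brake on the pathway. The pathway supports mammary stem cells and is active in a subset of mammary tumors, and CDK8 is known as a coregulator of beta-catenin in colorectal cancer cells. Messenger RNA does not show the amount, phosphorylation or location of beta-catenin protein.

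Libraries held 16452260 to 22664693 counts, so that 3 counts equaled 0.132 to 0.182 CPM (counts scaled to a common library size), and lower levels cannot be told from 0. Cdk8 read 58.5, 54.7 and 55.0 CPM in cntrl, 22.2, 18.7 and 23.4 CPM in shCdk8-1 and 38.5, 38.9 and 39.2 CPM in shCdk8-2, all in DMSO. The fall was 2.62-fold in shCdk8-1 (adjusted p = 3.22e-11, edgeR quasi-likelihood test) and 1.45-fold in shCdk8-2 (adjusted p = 1.6e-06). Markers did not mark cntrl cells as luminal: Epcam, Cdh1, Krt8, Krt18 and Krt19 were each below 0.5 CPM and summed to 0.163 to 0.441 CPM in cntrl in DMSO, against 8.08 to 8.94 CPM in shCdk8-1 and 12.4 to 14.3 CPM in shCdk8-2, nearly all of it Krt8. Of 5 basal markers, Krt5, Krt14, Krt17 and Trp63 stayed below 0.5 CPM in all groups in DMSO and Acta2 read 142 CPM in cntrl on average, 94.5 CPM in shCdk8-1 and 208 CPM in shCdk8-2. Of the receptors that define triple-negative cells, Esr1 averaged 23.1 CPM in cntrl against 1.25 and 0.951 CPM in the hairpin lines. Erbb2, which encodes HER2, averaged 55.3, 49.5 and 47.3 CPM, and Pgr had no count. The 6 fibroblast markers summed to 2240 to 2310 CPM in cntrl, 1620 to 1720 CPM in shCdk8-1 and 1920 to 2020 CPM in shCdk8-2, most of it Col3a1 (1986, 1405 and 1688 CPM on average), while Col1a1 rose from 0.78 to 16.6 and 9.9 CPM and Dcn from 0.539 to 1.82 CPM in shCdk8-1 (0.813 CPM in shCdk8-2, not passed). Summed endothelial markers read 4.94 to 5.6, 13.8 to 15.4 and 6.43 to 6.92 CPM in that order, made of a rise of Pecam1 from 0.286 to 14.3 and 5.85 CPM and a fall of Cdh5 from 4.34 to 0.206 and 0.595 CPM, with Tek below 0.5 CPM in each. Of the immune markers, Lyz2 fell from 4.45 to 2.17 and 1.97 CPM, Cd68 read 2.53, 1.79 and 2.52 CPM without passing, and Ptprc, Cd3e and Csf1r were below 0.5 CPM in each. These differences run with the hairpin lines, and their part in the results was not tested. In bulk RNA, fewer cells that express a gene and less RNA per cell cannot be told apart.

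Only a subset of the pathway was expressed. Of the 46 members, 27 passed the filter on low counts in the fit of cntrl, SnxB-treated cntrl and both hairpin lines in DMSO, and 28 passed, with Nkd1 added, when all 18 libraries were fitted. The other 18 members never exceeded 4 counts in a library: the ligands Wnt4 and Wnt5a, the receptors Fzd1, Fzd3, Fzd4, Fzd6, Fzd7, Fzd8, Fzd9 and Fzd10, the ubiquitin ligase Rnf43, the secreted inhibitors Dkk1, Dkk3, Sfrp1, Sfrp2 and Notum, the feedback inhibitor Nkd2 and the TCF factor Lef1. Of these, Fzd3, Fzd7, Fzd8, Fzd10, Dkk1 and Sfrp1 had no count in any library. Lef1 had 3 counts in 1 library of shCdk8-2 in SnxB and none in the other 17. Thus Fzd2 and Fzd5 were the Frizzled genes measured of 10, while the 9 cytoplasmic members all passed the filter.

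**Figure D1:**
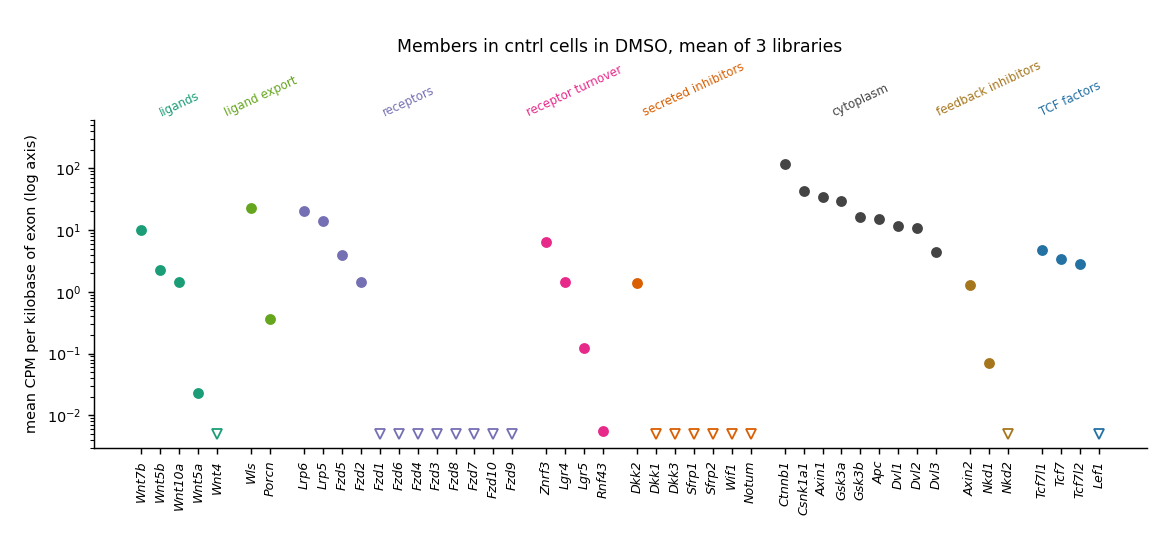
Mean level of the 46 members in cntrl cells in DMSO, in CPM per kilobase of exon on a log axis, grouped by role, with open triangles at 0.005 for members at or below that level. Ctnnb1 leads at 117, the core of the destruction complex lies between 15.3 and 42.5, and 17 members lie at or under 0.005.

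Compared per kilobase of exon, Ctnnb1, which encodes beta-catenin, had the highest level of the members in cntrl in DMSO, at 117 CPM per kilobase. It was followed by Csnk1a1 (42.5), Axin1 (34.1), Gsk3a (29.1), Wls (22.5), Lrp6 (20.2), Gsk3b (16.0), Apc (15.3) and Lrp5 (14.0), all in CPM per kilobase. Wnt7b was the leading ligand, at 9.86 CPM per kilobase against 2.22 for Wnt5b and 1.44 for Wnt10a. Fzd5 stood at 3.95 and Fzd2 at 1.47 CPM per kilobase. In shCdk8-1 in DMSO that order of the Frizzled pair was turned, with 3.86 CPM per kilobase for Fzd2 and 2.63 for Fzd5, and in shCdk8-2 Fzd2 stood at 3.07 and Fzd5 at 2.73.

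Hairpins against Cdk8 came with changes in most members measured, most of them of less than 2-fold. In shCdk8-1 in DMSO, 21 of the 27 members tested passed an adjusted p of 0.05, 14 higher and 7 lower. Among all 12590 genes tested, 60.6% passed in that comparison, 30% higher and 30.6% lower. In shCdk8-2 in DMSO, 21 of 27 members passed as well, 14 higher and 7 lower, beside 58.2% of all genes, 28.7% higher and 29.5% lower. The median log2 fold change of the members was 0.18 in each line, beside 0.002 and 0.004 over all genes, and their median absolute change was 0.47 in shCdk8-1 and 0.34 in shCdk8-2, beside 0.26 and 0.24 over all genes. With a fold change above 2 added, 5 members were called in shCdk8-1, namely Wnt7b, Fzd2 and Wif1 higher and Wnt10a and Dkk2 lower, against 12.3% of all genes (5.01% higher and 7.32% lower). In shCdk8-2, 5 were called, namely Fzd2, Tcf7 and Wif1 higher and Dkk2 and Lgr5 lower, against 10.8% of all genes (4.75% higher and 6.08% lower). Each of these counts includes Dkk2 and Wif1, which passed the filter on low counts through the groups in which they are high. A difference was thus required of them, and the counts are no sign of an excess over all genes. Both comparisons share the cntrl libraries, so their likeness is in part that of the controls.

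The largest changes were in the secreted inhibitors, of which 2 of 7 members were tested. Dkk2 encodes a Dickkopf protein that binds LRP5 and LRP6. It read 5.79, 4.23 and 5.24 CPM in cntrl in DMSO, 0, 0 and 0.0516 CPM in shCdk8-1 and 0 in each of the 3 shCdk8-2 libraries. Over the 3 libraries that is 279 counts in cntrl against 1 count in shCdk8-1 and none in shCdk8-2. The ratio to shCdk8-1 was 295 (95% interval 52.5 to 11700, counting error only), and Dkk2 was at least 30.9-fold lower in shCdk8-2, taking 3 counts per library as the floor. The ratio divides by 1 count, which is under that floor. It is a measure unlike the lower bound, so the lines cannot be compared by these values. Adjusted p was 3.13e-09 and 3.05e-09 (edgeR).

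Wif1, whose product binds Wnt proteins outside the cell, showed the opposite pattern. No count was found in the 3 cntrl libraries in DMSO, whereas shCdk8-1 read 3.29, 3.65 and 2.99 CPM and shCdk8-2 1.00, 1.48 and 1.26 CPM. Wif1 was at least 17.9-fold higher in shCdk8-1 (192 counts against 0, adjusted p = 6.42e-09, edgeR) and at least 6.75-fold higher in shCdk8-2 (75 counts against 0, adjusted p = 8.67e-07, edgeR). Its level in shCdk8-2 was below that in shCdk8-1, by a log2 difference of -1.42 ± 0.20 (SE, adjusted p = 0.000199). Both genes passed the filter through the groups in which they are high, so a difference was required of them. For the same reason, the lack of overlap between cntrl and hairpin lines for either gene is no further support.

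The windows around the annotated starts of this pair are shown because Dkk2 and Wif1 carry the on and off changes of the pathway. They run from 250 bases before to 50 bases after the start in RefSeq on GRCm38.p6, plus strand, with the 50 transcribed bases in capitals. Dkk2 lies at chr3:132085042-132085341 and has a GC content of 57.7%, and Wif1 lies at chr10:121033754-121034053 with 63.0%.
Dkk2: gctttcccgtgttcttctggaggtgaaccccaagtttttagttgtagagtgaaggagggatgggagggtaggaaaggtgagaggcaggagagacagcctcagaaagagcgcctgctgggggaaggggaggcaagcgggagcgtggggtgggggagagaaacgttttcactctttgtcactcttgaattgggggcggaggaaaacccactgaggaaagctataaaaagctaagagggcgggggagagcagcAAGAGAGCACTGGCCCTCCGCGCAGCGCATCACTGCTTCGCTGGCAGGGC
Wif1: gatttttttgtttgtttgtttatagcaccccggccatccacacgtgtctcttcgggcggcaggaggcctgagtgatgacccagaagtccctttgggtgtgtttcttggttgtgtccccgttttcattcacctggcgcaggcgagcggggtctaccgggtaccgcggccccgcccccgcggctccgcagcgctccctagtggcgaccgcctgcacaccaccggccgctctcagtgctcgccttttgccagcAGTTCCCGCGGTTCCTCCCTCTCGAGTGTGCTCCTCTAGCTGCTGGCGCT

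The core letters that TCF/LEF factors are known to bind, searched as CTTTGAT and CTTTGAA on both strands, were in neither window. RefSeq windows were at hand for 28 of the 46 members, 37 windows in all, and 3 of these (8.11%) held a match, beside 8.65% of 32851 windows of all genes. The matches were in Wnt5b, Gsk3a and Dkk1, and the Axin2 window had none. Wnt5b is shown as the member with a match that also changed with the hairpins. In 1 of its windows, the match (in capitals) begins 71 bases before the start and lies within chr6:119449440-119449468, read on the minus strand.
Wnt5b: agtaagtctctCTTTGATctgctccctgt
A match of these letters is a description of sequence and no evidence of binding.

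**Figure D2:**
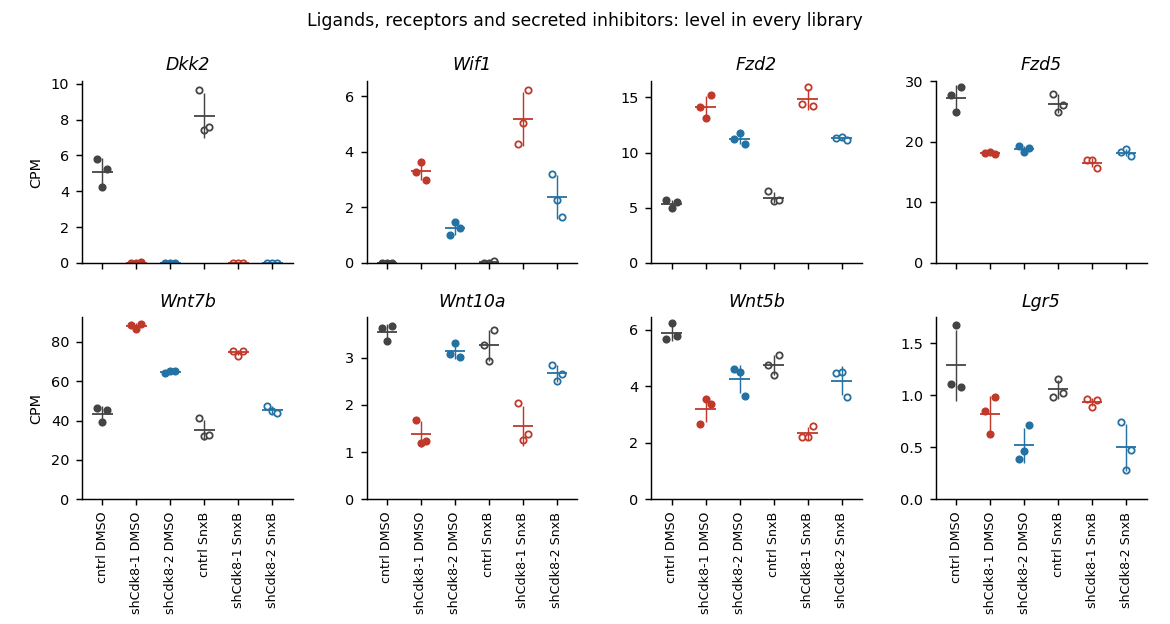
CPM in each of the 18 libraries for 8 ligands, receptors, receptor regulators and secreted inhibitors, with 3 points per group (filled in DMSO, open in SnxB), the group mean as a horizontal bar and the SD as a vertical bar. Dkk2 is at or near 0 in every hairpin library and Wif1 at or near 0 in every cntrl library, in DMSO and in SnxB alike.

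Of 5 Wnt ligands, 3 were measured, and each differed between the hairpin lines (adjusted p = 0.0322 or lower, edgeR). Wnt7b, a ligand of the canonical branch in many epithelia, read 46.4, 39.0 and 45.1 CPM in cntrl, 88.8, 86.6 and 88.98 CPM in shCdk8-1 and 64.0, 65.2 and 65.0 CPM in shCdk8-2. It was 2.02-fold higher in shCdk8-1 (log2 fold change 1.02 ± 0.075 SE, adjusted p = 7.97e-09) and 1.48-fold higher in shCdk8-2 (0.57 ± 0.076, adjusted p = 9.52e-06), without overlap of the 3 groups. Wnt10a, which can also signal through beta-catenin, read 3.63, 3.36 and 3.67 CPM in cntrl, 1.69, 1.20 and 1.24 CPM in shCdk8-1 and 3.09, 3.32 and 3.01 CPM in shCdk8-2. It was 2.56-fold lower in shCdk8-1 (adjusted p = 2.12e-06), while shCdk8-2 stood 1.14-fold below cntrl and did not pass (adjusted p = 0.277). The direct comparison of shCdk8-2 with shCdk8-1 gave a log2 difference of 1.17 ± 0.16 for Wnt10a (adjusted p = 9.38e-05). Wnt5b, mostly known from beta-catenin-independent signaling, fell 1.86-fold in shCdk8-1 and 1.38-fold in shCdk8-2 (adjusted p = 1.77e-05 and 0.00365), from a mean of 5.89 CPM to 3.19 and 4.26 CPM. The export factors Porcn, which attaches the lipid to Wnt proteins, and Wls, which carries them to the surface, did not pass in either line in DMSO, with log2 fold changes between -0.32 and 0.18.

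Among receptors, the Frizzled pair moved in opposite directions. Fzd2 read 5.66, 4.98 and 5.48 CPM in cntrl, 14.1, 13.2 and 15.2 CPM in shCdk8-1 and 11.2, 11.7 and 10.8 CPM in shCdk8-2. It rose 2.63-fold (adjusted p = 1.51e-09) and 2.09-fold (adjusted p = 7.66e-08), and each hairpin library was above each cntrl library. Fzd5 fell from 27.8, 24.97 and 29.03 CPM in cntrl to 18.1 to 18.3 CPM in shCdk8-1 and 18.3 to 19.3 CPM in shCdk8-2, which is 1.5-fold and 1.45-fold (adjusted p = 1.24e-06 and 3.54e-06). The co-receptor Lrp5 rose 1.51-fold in shCdk8-1 and 1.42-fold in shCdk8-2, from 137, 136 and 136 CPM to 202, 218 and 201 CPM and to 195, 194 and 193 CPM (adjusted p = 9.6e-09 and 9.65e-08). Lrp6 read 294, 264 and 271 CPM in cntrl, 252, 302 and 249 CPM in shCdk8-1 and 238, 244 and 243 CPM in shCdk8-2. It did not pass in shCdk8-1 (log2 fold change -0.05, adjusted p = 0.63), and its 1.15-fold fall in shCdk8-2 (adjusted p = 0.0492) lost the call without any 1 of the 6 libraries compared.

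Regulators of Frizzled turnover changed as well. Lgr4, a receptor for R-spondins, which protect Frizzled proteins from degradation, read 9.42, 7.69 and 7.93 CPM in cntrl, 14.6, 15.03 and 13.5 CPM in shCdk8-1 and 11.6, 10.5 and 11.3 CPM in shCdk8-2. It rose 1.73-fold and 1.33-fold (adjusted p = 1.77e-06 and 0.00137). Its relative Lgr5, a stem cell marker and itself a Wnt target, was scarce, with 1.11, 1.68 and 1.08 CPM in cntrl, 0.845, 0.626 and 0.981 CPM in shCdk8-1 and 0.392, 0.459 and 0.712 CPM in shCdk8-2. Lgr5 fell 2.52-fold in shCdk8-2 (adjusted p = 0.00101). The difference in shCdk8-1 (log2 fold change -0.64 ± 0.27, adjusted p = 0.0477) was lost with DESeq2 (adjusted p = 0.129), without cntrl library 2 (adjusted p = 0.27) or shCdk8-1 library 1 or 2 (adjusted p = 0.0891 and 0.154). Znrf3, the ubiquitin ligase that removes Frizzled from the surface, rose 1.34-fold and 1.31-fold (adjusted p = 8.51e-06 and 1.94e-05).

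In the cytoplasm, Ctnnb1 itself rose. It read 589.5, 612 and 618 CPM in cntrl, 1102, 1155 and 1123 CPM in shCdk8-1 and 714, 738 and 718 CPM in shCdk8-2. That is 1.86-fold higher in shCdk8-1 (log2 fold change 0.89 ± 0.036, adjusted p = 4.3e-12) and 1.19-fold higher in shCdk8-2 (0.25 ± 0.036, adjusted p = 1.85e-05). The 3 groups did not overlap, and the lines differed from each other by -0.64 ± 0.036 on the log2 scale (shCdk8-2 minus shCdk8-1, adjusted p = 7.73e-09). Its exons share 0.443% of their bases with a microRNA gene on the same strand.

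Genes of the destruction complex moved in different directions. Apc, its large scaffold, read 248, 234 and 243 CPM in cntrl, 155, 181 and 149 CPM in shCdk8-1 and 153, 163 and 165 CPM in shCdk8-2, a fall of 1.5-fold and 1.51-fold (adjusted p = 2.93e-06 and 2.55e-06). Csnk1a1, the kinase CK1 alpha that primes beta-catenin, fell from 449, 434 and 455 CPM to 358, 360.0 and 378 CPM and to 357, 361 and 344 CPM, that is 1.22-fold and 1.26-fold (adjusted p = 3.07e-06 and 6.32e-07). Gsk3b, the kinase that acts next, rose instead, from 155, 157 and 159.6 CPM to 220.5, 246 and 213 CPM and to 195, 197 and 203 CPM (1.44-fold and 1.26-fold, adjusted p = 3.69e-07 and 6.79e-05). Its paralog Gsk3a differed by less than could be called, with 83.3 to 84.9 CPM in cntrl, 86.4 to 91.2 CPM in shCdk8-1 and 86.4 to 89.3 CPM in shCdk8-2 (adjusted p = 0.124 and 0.262). Axin1, the limiting scaffold of the complex, stood at 130.4 to 130.6 CPM in cntrl and rose slightly, to 140.5 to 144.6 CPM and 142.6 to 149.2 CPM (1.09-fold and 1.12-fold, adjusted p = 0.00199 and 0.000282). Of the Dishevelled genes, which relay the signal from Frizzled, Dvl2 and Dvl3 rose in both lines by 1.17-fold to 1.39-fold. Dvl1 passed in shCdk8-2 (1.20-fold, adjusted p = 0.0328) and not in shCdk8-1 (1.13-fold, adjusted p = 0.137), and the direct difference between the lines did not pass (0.09 ± 0.099, adjusted p = 0.594).

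**Figure D3:**
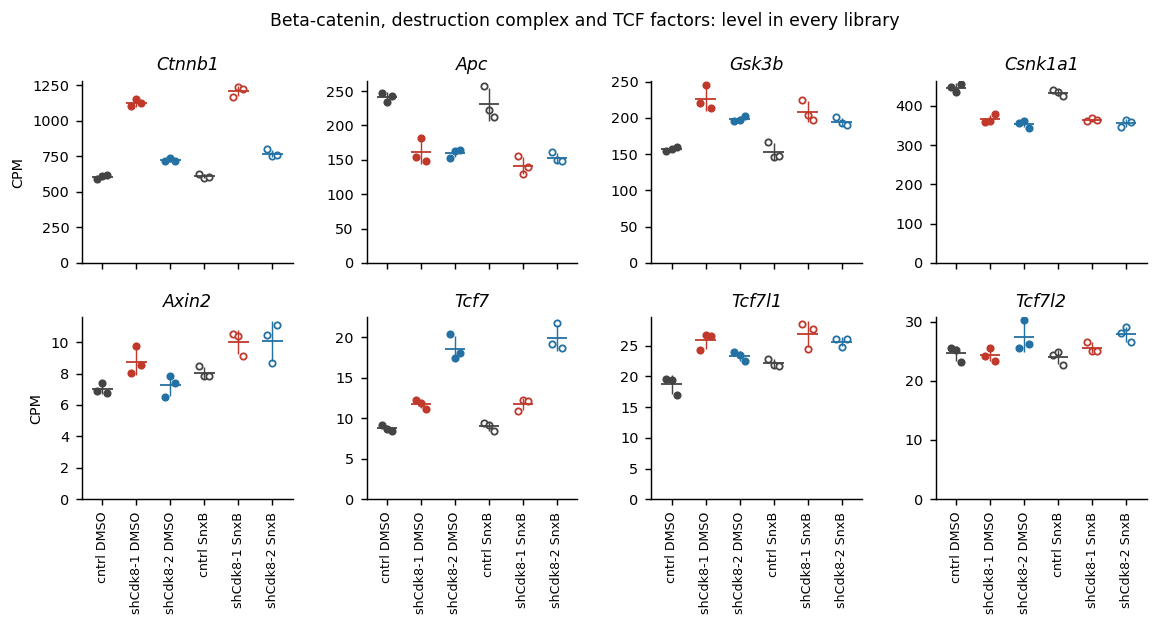
CPM in each of the 18 libraries for beta-catenin (Ctnnb1), 3 genes of the destruction complex, the feedback inhibitor Axin2 and 3 TCF factors, drawn with 3 points per group (filled in DMSO, open in SnxB), group means and SD bars. Ctnnb1 is highest in shCdk8-1, Tcf7 is highest in shCdk8-2, and Apc and Csnk1a1 lie below cntrl in both hairpin lines.

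The TCF factors that pair with beta-catenin on DNA were represented by 3 of 4 genes. Tcf7, which encodes TCF1, read 9.17, 8.72 and 8.42 CPM in cntrl, 12.2, 11.8 and 11.2 CPM in shCdk8-1 and 20.4, 17.5 and 18.01 CPM in shCdk8-2. It rose 1.34-fold in shCdk8-1 (adjusted p = 0.000418) and 2.12-fold in shCdk8-2 (adjusted p = 9.54e-09), and the lines differed by a log2 value of 0.66 ± 0.075 (adjusted p = 1.46e-05). Tcf7l1, usually a repressor of Wnt targets, read 19.6, 19.5 and 17.0 CPM in cntrl, 24.3, 26.8 and 26.5 CPM in shCdk8-1 and 24.0, 23.5 and 22.5 CPM in shCdk8-2, a rise of 1.38-fold and 1.25-fold (adjusted p = 1.7e-05 and 0.000805). Tcf7l2, the main partner of beta-catenin in the gut, stood at 25.6, 25.1 and 23.2 CPM in cntrl, 24.1, 25.5 and 23.4 CPM in shCdk8-1 and 25.6, 30.3 and 26.3 CPM in shCdk8-2. The groups overlapped, and neither line passed (log2 fold change -0.02 and 0.15, adjusted p = 0.848 and 0.0908), although shCdk8-2 passed when libraries were scaled by their totals (adjusted p = 0.036).

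Axin2, the feedback inhibitor most often read as a target of the pathway, was low. It read 6.89, 7.42 and 6.76 CPM in cntrl, 8.03, 9.74 and 8.52 CPM in shCdk8-1 and 6.53, 7.86 and 7.39 CPM in shCdk8-2. It rose 1.24-fold in shCdk8-1 (log2 fold change 0.31 ± 0.099, adjusted p = 0.0125), a call lost without shCdk8-1 library 2 (adjusted p = 0.0708), and stood at 0.04 ± 0.10 in shCdk8-2 (adjusted p = 0.794). The direct difference between the lines was -0.28 ± 0.097 (adjusted p = 0.054). Nkd1, another inducible inhibitor, had 2 to 14 counts per library and was not tested in DMSO.

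Between the hairpin lines in DMSO, 9 of 27 members passed, 3 higher and 6 lower in shCdk8-2, beside 22% of all genes (11.3% higher and 10.6% lower). Wnt10a, Wnt5b and Tcf7 were higher in shCdk8-2. Wnt7b, Fzd2, Lgr4, Wif1, Ctnnb1 and Gsk3b were higher in shCdk8-1, the line with the lower Cdk8. Wnt10a and Wif1 differed by more than 2-fold, beside 2.07% of all genes. Against cntrl, both lines had passed for Wnt5b, Wnt7b, Fzd2, Lgr4, Ctnnb1, Gsk3b and Wif1, shCdk8-1 with the larger change. Tcf7 changed more in shCdk8-2. These members were picked for a difference between the lines in the same libraries, so a larger change in 1 line was required of them. How often shCdk8-1 had the larger change among all genes was not counted. A relation to the level of Cdk8 was not tested.

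**Figure D4:**
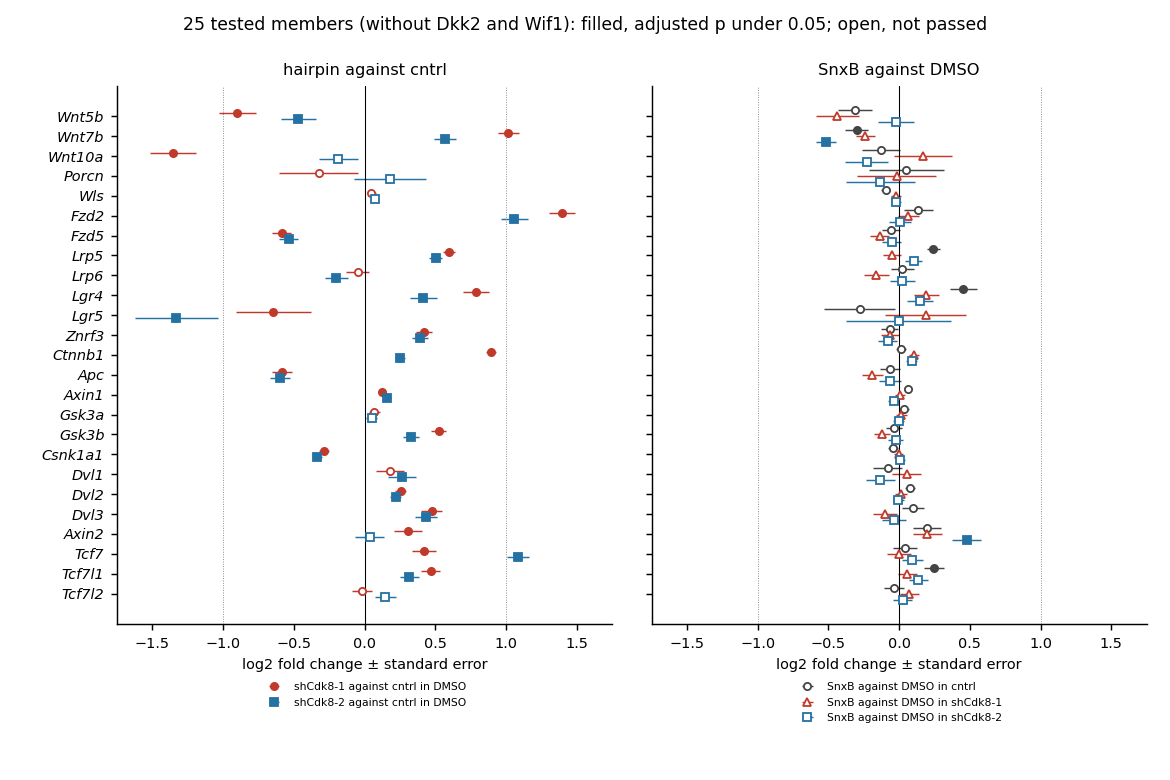
Log2 fold change ± standard error of 25 tested members, without Dkk2 and Wif1, whose changes with the hairpins lie outside the plotted range, left for each hairpin line against cntrl in DMSO and right for SnxB against DMSO in each line, with filled symbols for an adjusted p under 0.05 and dotted lines at a 2-fold change. Symbols spread from -1.35 to 1.40 on the left and stay between -0.51 and 0.48 on the right. With SnxB, the members left out stood beyond that range: Dkk2 at 0.69 in cntrl (called), Wif1 at 0.66 in shCdk8-1 and 0.96 in shCdk8-2 (not passed). Their values in the other lines rest on at most 1 count.

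The hairpin lines were also compared with cntrl in SnxB. These are other libraries of the same transduced lines, fitted and scaled together with those in DMSO, so this is no independent repeat of the hairpins. In shCdk8-1, 23 of 28 members passed, 15 higher and 8 lower, beside 60.6% of all 12772 genes (30.5% higher and 30.1% lower). In shCdk8-2, 19 passed, 14 higher and 5 lower, beside 56.7% of all genes (28.1% higher and 28.6% lower). All 21 members called in DMSO had the same direction in SnxB in each line. Of all genes called in DMSO, 7463 of 7624 in shCdk8-1 and 7224 of 7322 in shCdk8-2 did so. Among the members, 19 in shCdk8-1 and 16 in shCdk8-2 passed again, which is 90.5% and 76.2%, against 85.6% and 86.0% of all genes. The members that did not pass again were Lgr5 and Axin1 in shCdk8-1 and Wnt5b, Lrp6, Lgr4, Axin1 and Dvl1 in shCdk8-2. Calls made in SnxB only were Wls, Dvl1, Lrp6 and Nkd1 in shCdk8-1 and Wls, Axin2 and Tcf7l2 in shCdk8-2. Wls stood 0.13 and 0.15 higher on the log2 scale (adjusted p = 0.00383 and 0.00121, edgeR). The Lrp6 call was lost with library totals (adjusted p = 0.0551, edgeR). Above 2-fold, shCdk8-1 had 6 members (Wnt7b, Fzd2 and Wif1 higher, Wnt5b, Wnt10a and Dkk2 lower), beside 12.8% of all genes (5.75% higher and 7.06% lower). shCdk8-2 had 4 (Tcf7 and Wif1 higher, Lgr5 and Dkk2 lower), beside 10.8% of all genes (5.04% higher and 5.75% lower). These counts also include Dkk2 and Wif1, of which a difference was required.

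Dkk2 read 9.67, 7.42 and 7.58 CPM in cntrl in SnxB and 0 in all 6 hairpin libraries in SnxB, at least 46.1-fold lower in shCdk8-1 and at least 46.4-fold lower in shCdk8-2. Wif1 had 1 count in 1 of the 3 cntrl libraries in SnxB, against 4.30, 5.05 and 6.24 CPM in shCdk8-1 and 3.20, 2.28 and 1.65 CPM in shCdk8-2. The ratios of summed counts were 309 (95% interval 55.1 to 12300, counting error only) and 144 (25.4 to 5730). Both divide by that 1 count, under the floor, and cannot be set beside the lower bounds given for Wif1 in DMSO. Ctnnb1 again differed most in shCdk8-1, at 1169, 1237 and 1225 CPM against 627, 598 and 606 CPM in cntrl and 799, 751 and 756.5 CPM in shCdk8-2 (log2 fold change 0.99 and 0.33, adjusted p = 5.85e-15 and 1.43e-07). Axin2 passed in both lines in SnxB, with log2 fold changes of 0.32 and 0.33 (adjusted p = 0.0114 and 0.0104), the latter lost without shCdk8-2 library 3 in SnxB (adjusted p = 0.0553). Nkd1 was lower in shCdk8-1 (-0.99 ± 0.34, adjusted p = 0.0343), with 7, 4 and 4 counts against 10, 9 and 14 in cntrl. It passed the filter on low counts through libraries other than those of shCdk8-1 in SnxB, so the filter favored a difference.

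Inhibition of the kinases moved fewer members than the hairpins did. In cntrl cells, SnxB changed 5 of 27 members (18.5%), 4 higher and 1 lower, beside 5.53% of all genes (3.42% higher and 2.1% lower). None changed by more than 2-fold with edgeR or DESeq2, and 7 members had an unadjusted p under 0.05. The 5 calls fell to between 2 and 4 when single libraries were left out. There were 2 without cntrl library 2 or 3 in DMSO, and 3 without cntrl library 1 in DMSO or library 2 or 3 in SnxB. With libraries scaled by their totals, 3 members were higher and 2 lower, and the share of higher genes among all genes called moved from 61.9% to 48.8%. Lrp5 read 174, 157.5 and 152 CPM in SnxB, above its 137, 136 and 136 CPM in DMSO (log2 fold change 0.24 ± 0.045, adjusted p = 0.00396), a call kept without any 1 of the 6 libraries. Lgr4 read 12.3, 11.6 and 10.2 CPM in SnxB (0.45 ± 0.095, adjusted p = 0.00909), which was lost without cntrl library 2 or 3 in DMSO (adjusted p = 0.0575 and 0.0519). Dkk2 rose by 0.69 ± 0.15 (adjusted p = 0.0132), a call lost without cntrl library 2 in DMSO (adjusted p = 0.0741). Tcf7l1 read 22.9, 21.8 and 21.6 CPM in SnxB (0.25 ± 0.068, adjusted p = 0.0476), a call lost with DESeq2 (adjusted p = 0.0809) and without any 1 library.

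Wnt7b was the member called lower in SnxB-treated cntrl cells. It read 41.3, 32.2 and 32.7 CPM in cntrl, 75.3, 73.0 and 75.6 CPM in shCdk8-1 and 47.3, 45.0 and 43.6 CPM in shCdk8-2, all in SnxB. The log2 fold changes from DMSO were -0.30 ± 0.080 (adjusted p = 0.0395), -0.24 ± 0.067 (adjusted p = 0.0813) and -0.51 ± 0.070 (adjusted p = 0.000255) in that order. In cntrl the SnxB and DMSO libraries overlapped and the call was lost without cntrl library 1 or 3 in DMSO or 2 or 3 in SnxB (adjusted p = 0.14 to 0.17). In both hairpin lines each library in SnxB was below each in DMSO. The share of all genes separated in this way was not counted, so this adds no support to the uncalled difference in shCdk8-1. The SnxB comparison in cntrl uses the same DMSO libraries as the hairpin comparisons in DMSO.

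Inside the hairpin lines SnxB called 0 of 28 members in shCdk8-1 with edgeR, with 7 at an unadjusted p under 0.05 and 1 called by DESeq2, beside 1.48% of all genes. In shCdk8-2 it called 2, Wnt7b and Axin2, beside 2.05% of all genes. Axin2 read 10.4, 8.65 and 11.1 CPM in shCdk8-2 in SnxB against 6.53, 7.86 and 7.39 CPM in DMSO (0.48 ± 0.10, adjusted p = 0.0162). Without shCdk8-2 library 1 or 3 in DMSO, or library 1 or 3 in SnxB, that call was lost (adjusted p = 0.0507 to 0.111). In cntrl and shCdk8-1, Axin2 stood 0.20 above DMSO on the log2 scale without passing (adjusted p = 0.318 and 0.383). Wif1 stood 0.66 ± 0.19 higher in shCdk8-1 and 0.96 ± 0.26 higher in shCdk8-2 and did not pass (adjusted p = 0.103 and 0.0648). Ctnnb1 in SnxB differed by 0.01, 0.10 and 0.09 in cntrl, shCdk8-1 and shCdk8-2, none of which passed (95% intervals -0.06 to 0.08, 0.03 to 0.17 and 0.02 to 0.16).

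Whether SnxB acted differently with a hairpin was tested as an interaction. No member passed with edgeR or DESeq2 for either line, with 1 member each at an unadjusted p under 0.05, and 0.305% and 0.0548% of all genes passed for shCdk8-1 and shCdk8-2. Those members were Lrp5 with shCdk8-1 (-0.29 ± 0.088, adjusted p = 0.278) and Lgr4 with shCdk8-2 (-0.30 ± 0.14, adjusted p = 0.829). For Axin2 the interaction with shCdk8-2 was 0.28 on the log2 scale (95% interval -0.01 to 0.58, adjusted p = 0.879), and for Wnt7b it was -0.21 (-0.41 to -0.01, adjusted p = 0.848), so differences of this size were not settled by these libraries.

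The wider pathway was read from 83 further genes, of which 48 were tested in DMSO. Of these, 32 passed in shCdk8-1 (15 higher and 17 lower) and 29 in shCdk8-2 (16 higher and 13 lower), that is 66.7% and 60.4% beside 60.6% and 58.2% of all genes, with median log2 fold changes of 0.009 and -0.008. Prickle2, a planar polarity gene, read 35.9, 32.6 and 33.3 CPM in cntrl against 0.188 to 0.285 CPM in shCdk8-1 and 0.919 to 1.09 CPM in shCdk8-2 (log2 fold change -7.10 ± 0.15 and -5.10 ± 0.11, adjusted p = 2.01e-15 and 1.17e-14). Apcdd1, a membrane inhibitor of Wnt signaling, fell from 96.8 to 99.3 CPM to 12.1 to 13.5 CPM and 23.7 to 26.0 CPM (-2.93 and -1.98, adjusted p = 1.34e-15 and 7.35e-14). The ligands Wnt10b and Wnt6, outside the 46 members, rose with both hairpins, Wnt10b from a mean of 3.37 CPM to 14.7 and 15.6 CPM (adjusted p = 2.32e-09 and 1.74e-09) and Wnt6 from 1.63 CPM to 6.05 and 7.54 CPM (adjusted p = 9.4e-09 and 1.19e-09). The ligand Wnt3 had 34 counts over the cntrl libraries and none in the hairpin libraries in DMSO, at least 3.57-fold and 3.71-fold lower. The secreted inhibitor Sfrp4 had 14, 12 and 15 counts in cntrl, 1, 3 and 1 in shCdk8-1, which is at or under the floor of 3 counts, and 4, 6 and 5 in shCdk8-2. Wnt3 and Sfrp4 passed the filter through cntrl libraries, so a difference was required of them. In SnxB-treated cntrl cells 2 of the 48 passed (4.17%, beside 5.53% of all genes), Apcdd1 higher (0.26 ± 0.047, adjusted p = 0.00304) and Wnt3 lower, the latter with 10 counts against the 34 through which it entered the fit.

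Genes widely used as readouts of beta-catenin were read as well. Of 32 such genes outside the members, 21 were tested in DMSO. In shCdk8-1, 6 rose and 11 fell (81.0% called, beside 60.6% of all genes, 30% higher and 30.6% lower), and in shCdk8-2, 5 rose and 10 fell (71.4%, beside 58.2% of all genes, 28.7% higher and 29.5% lower), with medians of -0.16 and -0.07 beside 0.002 and 0.004 for all genes. Ccn4, a secreted matricellular protein, rose 1.12 ± 0.077 and 1.36 ± 0.075 on the log2 scale, from 16.3, 15.1 and 15.6 CPM to 32.9, 37.9 and 32.0 CPM and to 39.5, 41.2 and 40.6 CPM (adjusted p = 2.88e-09 and 3.33e-10). Met, the receptor of hepatocyte growth factor, fell from 539, 537 and 570.4 CPM to 209, 243 and 211 CPM and to 267, 269 and 272 CPM (-1.31 ± 0.056 and -1.03 ± 0.056, adjusted p = 9.38e-12 and 2.42e-10). Sp5, a direct target in many tissues, had no count in any library. SnxB in cntrl cells changed 4 of the 21, all higher: Myc (0.22), Met (0.22), Zeb1 (0.19) and Twist1 (0.23), named after their values were seen. Of all genes 5.53% passed there, 3.42% higher and 2.1% lower (61.9% of the calls higher, against 48.8% when libraries were scaled by their totals). Met was the gene of this list with an interaction, in shCdk8-1 (-0.39 ± 0.081, adjusted p = 0.0361), where it stood 0.17 lower in SnxB.

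**Figure D5:**
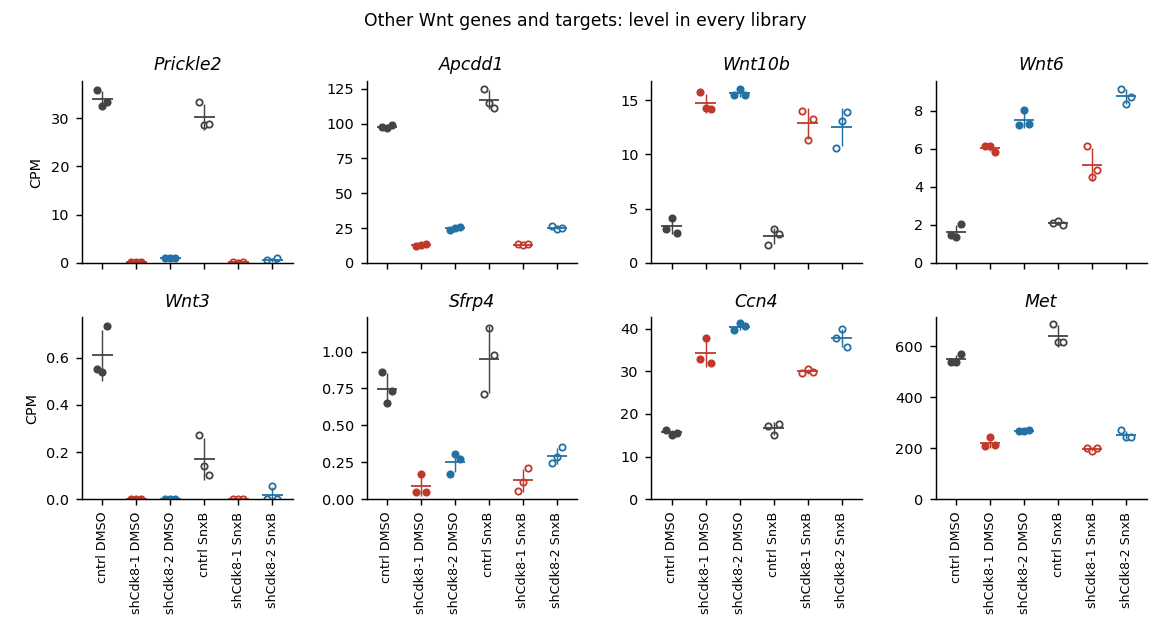
CPM in each of the 18 libraries for 6 further Wnt genes and the beta-catenin targets Ccn4 and Met, drawn with 3 points per group (filled in DMSO, open in SnxB), group means and SD bars. Prickle2, Apcdd1, Sfrp4 and Met are low in the hairpin lines and Wnt10b, Wnt6 and Ccn4 are high there, in DMSO and in SnxB alike, whereas Wnt3 is near 0 in the hairpin lines and also low in cntrl in SnxB.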

How the data were processed

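The authors sequenced 50-base single-end reads, trimmed them with Trimmomatic, mapped them with STAR to GRCm38 and counted reads per gene with featureCounts 1.5.1 on GENCODE M13 exons with the reverse-strand setting (2), which by default leaves out reads with several hits. The deposited values are these raw counts, without normalization or pooling. Symbols came from GENCODE M21. For shCdk8-2, the file headers carry the numbers 2, 3 and 3 for the libraries labeled 1, 2 and 3; the labels were used, and no pair of libraries was identical.

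Counts were fitted with edgeR 4.0.16 in R 4.3.3 (filterByExpr at min.count 10 and min.total.count 15, TMM, quasi-likelihood test, Benjamini-Hochberg adjustment over all genes tested). Comparisons among cntrl, cntrl in SnxB and hairpin lines in DMSO used 12 libraries (12590 genes), and the others all 18 (12772 genes). Standard errors were derived from the F statistic, and 95% intervals of log2 fold changes are 1.96 standard errors, which can be narrower than the test allows. CPM values are TMM-scaled. How often groups did not overlap among all genes was not counted, so a lack of overlap only describes the libraries. Promoter windows are from RefSeq. On simulated counts, 192 of 200 changed genes were recovered for shCdk8-1 against cntrl, with 10 false calls among 12451 genes. The changed genes were drawn from well-counted genes, with the same spread for every gene and all other genes unchanged. In the data, 7624 of 12590 genes passed in that comparison and several members had few counts. The recovery therefore does not carry over to those members. The members and lists were chosen with earlier results of these data known. Levels were given for members past an adjusted p of 0.05 and a 2-fold change with either hairpin in DMSO. The same holds for members that passed with SnxB and for 13 core genes. In each further list, levels were given for up to 6 of the largest changes called with both hairpins. Most of these levels are given per library, and some as the range or mean of a group. Alternatives were DESeq2 1.42.0, its size factors, library totals, no filter, a replicate block, other libraries in the fit and single libraries left out. The summed level of the immune marker list is not reported here.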

Additional observations from a re-analysis of the deposited data

How the results depend on the processing

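Of the counts of members, those for each hairpin against cntrl, in DMSO and in SnxB, and for the difference between the hairpins stayed within 1.5 times under each alternative run. With a library left out, the members past the adjusted p in DMSO ranged from 20 to 21 in either line. The counts for SnxB moved more. In cntrl cells the 5 members past the adjusted p became 2 to 4 with a library left out. In shCdk8-1 the 0 members became 1 with DESeq2, 4 without the filter and 0 to 1 with a library left out. In shCdk8-2 the 2 members became 1 in a fit of only the groups compared and 1 to 2 with a library left out, and the 0 members above 2-fold became 0 to 1. The interaction with shCdk8-1 gave 1 member without the filter. The cause was not tested. Differences too small to call changed sign. With a library left out, Lrp6 in shCdk8-1 in DMSO ranged from -0.145 to 0.001 (without cntrl library 1), Gsk3a in shCdk8-2 in SnxB from -0.012 (without cntrl library 2) to 0.056, Axin2 in shCdk8-2 in DMSO from -0.026 (without shCdk8-2 library 2) to 0.122, and Tcf7l2 in shCdk8-1 in DMSO from -0.057 to 0.012, the last above 0 without cntrl library 1 or 2 or shCdk8-1 library 3. With library totals, that Tcf7l2 value was 0.005.

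The replicate numbers of the labels paired the libraries weakly or not at all, with mean correlations of same-numbered deviations from -0.0456 to 0.145 over the comparisons. The highest was for shCdk8-2 against cntrl in SnxB (0.247, 0.0582 and 0.131). In shCdk8-1, each library in SnxB correlated best with the DMSO library of its number (0.0847, 0.0549 and 0.0749). As a replicate block the numbers left 20 members past the adjusted p in shCdk8-1, 19 in shCdk8-2 and 4 with SnxB in cntrl, all against cntrl in DMSO. The 18 members that passed no filter had at most 4 counts in a library, and their changes were not detectable at this depth.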
